A study of Mus musculus with 21 samples.

Results

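The genes described here are 10 inflammatory cytokines and cytokine antagonists (Tnf, Il1a, Il1b, Il1rn, Il6, Il10, Il18, Il33, Tgfb1 and Osm), chosen by symbol and matched through the GENCODE M21 annotation to their mouse Ensembl identifiers, 10 of the 55401 genes in the count table. They were measured by poly(A) RNA sequencing of the forebrain in 21 mice. E2H, E3H and E4H are the parental groups (3 mice each), targeted replacement mice on a C57BL6 background that are homozygous for the human APOE2, the human APOE3 or the human APOE4 allele in place of mouse Apoe, killed at 9 to 10 months of age. Their tau transgenic counterparts PS/E2H, PS/E3H and finally PS/E4H (4 mice each) are homozygous for the same human alleles and carry in addition 1 copy of the PS19 transgene, which encodes human tau with the P301S mutation under the mouse prion promoter, from a line kept on a B6/C3H background, and were killed when their hindlimbs were paralyzed. Between a PS19 group and the parental mice of its genotype the transgene, the paralysis, the age at death and the share of C3H background therefore cannot be told apart. No group carries the mouse Apoe alleles, and the study's methods give mice of both sexes in E4H, PS/E2H and PS/E4H and only males in the others, without a sex for each mouse. The study also reports later paralysis in PS/E3H than in PS/E2H or PS/E4H mice, without an age for each sequenced mouse. Where groups of different APOE genotype differ in sex or age at death, these cannot be told apart from the allele.

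These cytokines are the soluble signals by which glia and immune cells start, limit and end inflammation. IL-1α and IL-1β (Il1a, Il1b) act on the same receptor, which the product of Il1rn blocks, and IL-18 and IL-33 belong to the same family and use receptors of their own. TNF signals to NF-κB through its death domain receptor TNFR1 and through TNFR2, IL-6 and oncostatin M (Osm) signal to STAT3 through receptors that share gp130, and IL-10 and TGF-β1 (Tgfb1) restrain inflammatory cells. In the brain TGF-β1 maintains the resting state of microglia, the resident macrophages, while IL-33 is made mainly by oligodendrocytes and astrocytes.

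The genes lie on 8 chromosomes of GRCm38, and each is a protein-coding gene. Il1a (chr2:129299610-129309972, minus strand) and Il1b (chr2:129364570-129371139, minus strand) are neighbours with 54.6 kb between them, and Il1rn (chr2:24336853-24351494, plus strand) is on the same chromosome. Tgfb1 (chr7:25687002-25705077, plus strand) lies 5.99 Mb from the replaced Apoe gene. The others are Tnf (chr17:35199381-35202007, minus strand), Il6 (chr5:30013114-30019981, plus strand), Il10 (chr1:131019845-131024974, plus strand), Il18 (chr9:50554827-50581840, plus strand), Il33 (chr19:29925114-29960718, plus strand) and Osm (chr11:4236420-4241026, plus strand). The annotation places other genes over Il1a (Gm14023), Il1b (Il1bos) and Il18 (Bco2 and Tex12), and 9.14% of the 50-base windows of the Il1a transcript also occur in other transcripts, so reads in these stretches may be divided between genes.

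The RefSeq promoter table (GRCm38.p6, 250 bases before to 50 after a transcription start) holds 8 of the 10 genes, all but Il10 and Osm. The promoters of the 4 genes among them that passed the test between PS/E4H and E4H mice (below) are shown. Each gene was called singly there, and whether they share a regulation was not tested. The windows are chr2:129309923-129310222 (minus strand) for Il1a, chr2:129371090-129371389 (minus strand) for Il1b, chr2:24345121-24345420 (plus strand) for the last of 3 starts of Il1rn, and chr7:25686752-25687051 (plus strand) for Tgfb1. Each is written 5′ to 3′ on the gene's strand, and capitals mark the motif matches described after them.
Il1a: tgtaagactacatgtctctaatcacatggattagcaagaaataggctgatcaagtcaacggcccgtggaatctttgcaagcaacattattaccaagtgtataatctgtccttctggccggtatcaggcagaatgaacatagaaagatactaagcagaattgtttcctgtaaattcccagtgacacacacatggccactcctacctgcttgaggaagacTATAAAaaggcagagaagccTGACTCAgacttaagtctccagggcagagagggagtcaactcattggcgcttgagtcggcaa
Il1b: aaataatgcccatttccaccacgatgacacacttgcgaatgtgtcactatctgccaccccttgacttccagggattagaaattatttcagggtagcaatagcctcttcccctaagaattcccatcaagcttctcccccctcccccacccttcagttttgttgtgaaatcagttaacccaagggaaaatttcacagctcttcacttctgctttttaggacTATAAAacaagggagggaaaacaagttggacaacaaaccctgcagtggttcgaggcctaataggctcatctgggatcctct
Il1rn: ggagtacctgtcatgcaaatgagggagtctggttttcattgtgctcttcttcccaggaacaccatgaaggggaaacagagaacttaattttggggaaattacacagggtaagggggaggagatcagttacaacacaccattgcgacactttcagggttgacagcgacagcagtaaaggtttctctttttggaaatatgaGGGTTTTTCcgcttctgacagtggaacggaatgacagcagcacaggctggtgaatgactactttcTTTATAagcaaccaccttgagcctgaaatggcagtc
Tgfb1: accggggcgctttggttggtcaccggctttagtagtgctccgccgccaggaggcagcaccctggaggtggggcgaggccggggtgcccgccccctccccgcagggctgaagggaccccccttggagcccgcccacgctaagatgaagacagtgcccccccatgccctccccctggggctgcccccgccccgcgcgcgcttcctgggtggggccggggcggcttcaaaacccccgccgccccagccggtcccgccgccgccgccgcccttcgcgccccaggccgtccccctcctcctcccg

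In all, 6 short motifs were searched on both strands of each promoter, and no match overlapped another. TATAAA, the TATA box, is held by 13.6% of the 32851 promoters in the table, and was found at position -32 from the start of Il1a, -31 from that of Il1b, -29 from that of Tnf, and -203 and -29 from the starts of Il33. It was also found on the opposite strand of the Il18 window (-175) and of the Il1rn window shown (14 after the start). The AP-1 motif TGANTCA (7.81% of promoters) was found at position -12 from the start of Il1a, -249 from that of Il6 and -141 from the first start of Il1rn. The NF-κB-like motif GGGNNTTTC (4.36% of promoters) was found at position -51 from the last start of Il1rn, -44 from the start of Il6 and on the opposite strand of Il18 (37 after the start). GAGGAAGT, an ETS motif of the kind bound by PU.1 (3.20% of promoters), and the STAT-like TTCNNNGAA (8.30% of promoters) were found in none of the 8 genes' windows. The C/EBP-like TTGCNNAA (10.8% of promoters) was found in Il6 and in 1 of the windows of Il33. The Tgfb1 window, with 77% G and C, held none of the 6. Such matches describe the letters of these windows only.

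The libraries held 59265459 to 75932183 counts (median 63751715), and 27 within-group pairs of libraries were compared, with identical counts in 0 of them. Mouse Apoe was at 9.83 to 16.5 CPM (a gene's count scaled to the library total) in every group, which does not tell the human alleles apart, and Prnp, the gene whose promoter drives the transgene, was at 818 to 1072 CPM in the parental mice and at 1391 to 1928 CPM in the PS19 mice. Neuronal, astrocyte, oligodendrocyte and microglial markers were present in every library, as a forebrain sample requires. Low counts piled up at multiples of 4, with 12137 values of 3, 23659 of 4 and 7160 of 5 in the table, so a count of 4 may stand for about 1 sequenced fragment. On that reading a count of 0 allows up to 3 fragments or 12 counts. By plain library totals that is 0.158 to 0.202 CPM, without the TMM scaling used for the other CPM values. Counting error is the only error such limits cover.

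The levels of the 10 genes spanned 3 orders of magnitude. In FPKM, which divides a gene's fragments by transcript length and library size, Il33 stood first at 30.4 ± 9.51 FPKM (SD over the 21 mice), and Il18 followed at 11.9 ± 1.36 FPKM, below Il33 in 20 of 21 mice. Tgfb1 (1.23 ± 0.403 FPKM), Il1a (0.598 ± 0.293 FPKM) and Il1b (0.244 ± 0.196 FPKM) came next, and each exceeded the next gene in this order in 21, 21 and 19 of the 21 mice. The remaining genes were close to the limit of detection, and their order is not firm. Tnf (0.112 FPKM) exceeded Il10 (0.111 FPKM) in 13 of 21 mice, Il10 exceeded Osm (0.10 FPKM) in 6, Osm exceeded Il1rn (0.0572 FPKM) in 16, and Il1rn exceeded Il6 (0.0327 FPKM) in 9. Among all genes listed with FPKM values, Il33 was at the 96.2nd percentile of mean level, Tgfb1 at the 66.0th and Il6 at the 34.6th.

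**Figure D1:**
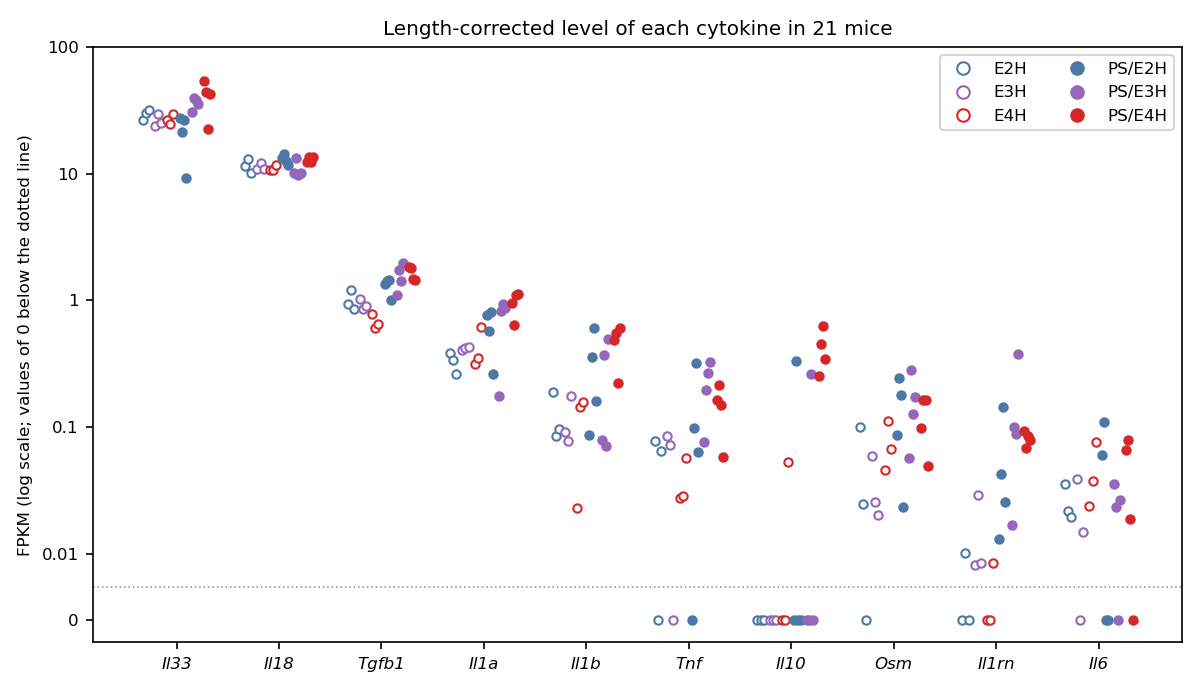
FPKM of each cytokine gene in each of the 21 mice on a log axis, by gene in order of mean level, with open symbols for parental and filled symbols for PS19 mice and values of 0 drawn below the dotted line. Il33 and Il18 sit above 9 FPKM in every mouse, while Tnf, Il10, Osm, Il1rn and Il6 each have mice at 0.

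The first question was what differs in PS19 mice within each APOE genotype. A gene was called when its Benjamini-Hochberg adjusted p over all genes tested by edgeR was under 0.05 and its fold change was at least 2. In PS/E4H mice Il1a, Il1b, Il1rn, Il10 and Tgfb1 rose relative to E4H mice, so that 5 of the 10 cytokines were called, all higher, against 2.98% of the 20844 genes tested (2.40% higher). The mice of the 2 groups did not overlap, with every PS/E4H mouse higher, for 7 of the 10 (the same 5, Tnf and Il18), against 15% of genes. In PS/E3H mice none of the 8 cytokines tested was called relative to E3H mice, against 1.32% of 21251 genes, and 5 of the 8 had an unadjusted p under 0.05, against 21.4% of genes. Without the limit on fold, Il33 and Tgfb1 passed there, 2 of 8 against 3.35% of genes higher. In PS/E2H mice none of the 7 tested was called relative to E2H mice, against 0.485% of 20617 genes, and 1 of the 7, Il1rn, had an unadjusted p under 0.05, against 10.7% of genes. Some of the cytokines had at most 11 counts in each parental mouse and passed the filter on low counts only through the PS19 mice. These were Il1rn in each genotype, Tnf in PS/E4H and PS/E3H, Il10 in PS/E4H and Osm in PS/E3H mice. For them a call could only be higher, which limits what the shares above mean. Il1b, Il6 and Osm in PS/E4H and Osm in PS/E2H mice also needed PS19 mice to pass the filter. Too few of their parental mice had enough counts by themselves, with 4, 23 and 25 for Il1b in E4H.

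The median log2 fold change of the cytokines tested was 1.22 in PS/E4H, 0.95 in PS/E3H and 0.83 in PS/E2H mice, and that of all genes tested lay within 0.02 of 0 in each comparison. By DESeq2, 1 cytokine (Il1rn) was called in PS/E3H and 0 in PS/E2H mice. The count of 5 in PS/E4H mice fell to 2 (Il1rn and Tgfb1) without E4H replicate 1 or without E4H replicate 2 and to 3 (these and Il10) without PS/E4H replicate 1 or without PS/E4H replicate 4, and the count of 0 in PS/E3H mice became 3 (Il1a, Il1rn and Osm) without PS/E3H replicate 1. Tnf, Il6 and Il10 in PS/E2H and Il6 and Il10 in PS/E3H mice had too few counts to be tested. In RNA of whole forebrain, more cells that express a gene and more RNA of it in each cell cannot be told apart.

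**Figure D2:**
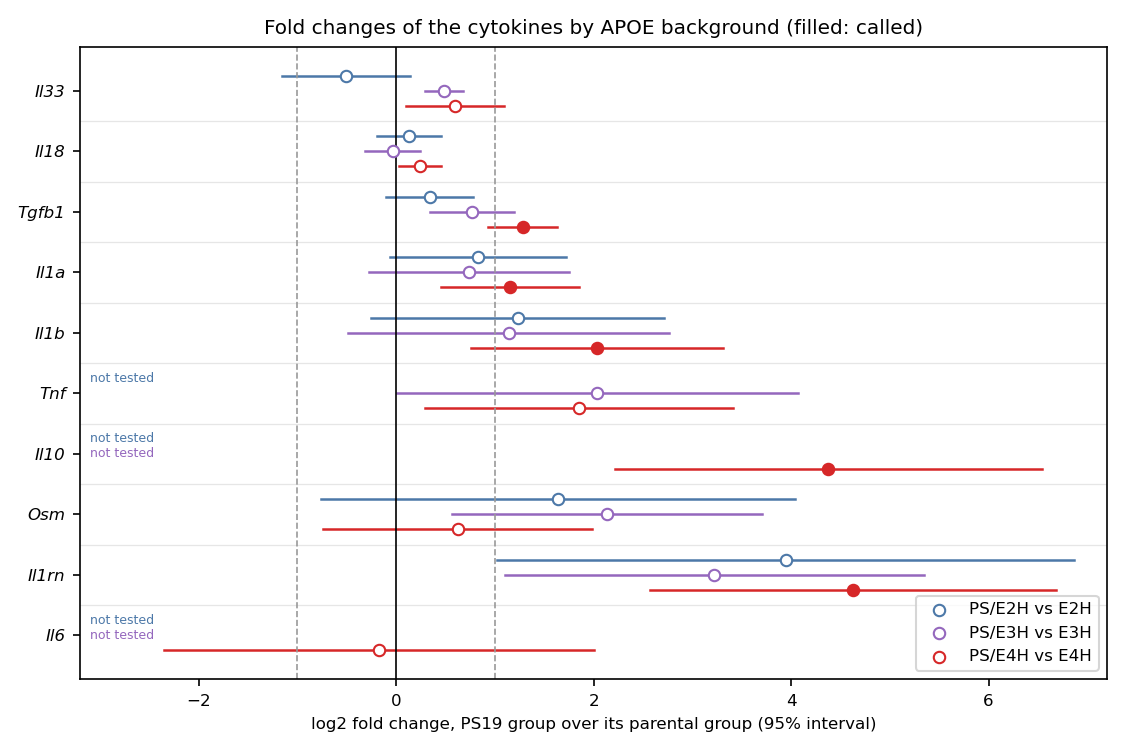
Log2 fold change of each cytokine gene between PS19 and parental mice of the same APOE genotype, with bars for the 95% interval from edgeR, filled points for called genes, dashed lines at a fold of 2 in each direction, and words where a gene had too few counts to be tested. The 5 filled points, for Il1a, Il1b, Il1rn, Il10 and Tgfb1, are all in the comparison of PS/E4H with E4H mice.

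Il1a, a cytokine that microglia and macrophages release early, rose in PS/E4H mice. Its CPM in the E4H mice, in order of replicate number, was 0.669, 0.756 and 1.32, and in the PS/E4H mice 2.04, 1.40, 2.42 and 2.32. All 4 PS/E4H mice were above the 3 E4H mice, the lowest of them just above the highest E4H mouse. The log2 fold change was 1.15 ± 0.31 (SE), a fold of 2.22, with an adjusted p of 0.0333 by edgeR. It is not firm, since the call was lost without E4H replicate 1 (0.98), E4H replicate 2 (1.04), PS/E4H replicate 1 (1.16), PS/E4H replicate 3 (1.07) or PS/E4H replicate 4 (1.09), with adjusted p up to 0.138.

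In the other backgrounds 1 PS19 mouse of each group stood low for Il1a. The PS/E3H mice were at 0.393, 1.74, 1.93 and 1.88 CPM against 0.881, 0.865 and 0.895 in the E3H mice. Replicate 1 of PS/E3H was thus below every E3H mouse while the other 3 were above them, and the log2 fold change of 0.74 ± 0.46 (adjusted p = 0.401 by edgeR) became 1.06 without it, which was called. The PS/E2H mice were at 1.68, 1.28, 1.72 and 0.573 CPM against 0.836, 0.813 and 0.564 in the E2H mice (log2 fold change 0.83 ± 0.40, adjusted p = 0.509). Replicate 4 of PS/E2H lay within the E2H range. The summed CPM of 10 microglial markers was also lowest in these mice, 545 in PS/E3H replicate 1 and 452 in PS/E2H replicate 4 against 638 to 944 in the other 10 PS19 mice, and the part of this in the Il1a values was not tested.

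Il1b, the IL-1 that is secreted after cleavage by caspase-1, was a rare transcript. Its counts were 4, 23 and 25 in the E4H mice and 62, 72, 30 and 78 in the PS/E4H mice, and the groups did not overlap. Il1b rose in PS/E4H mice by a log2 fold change of 2.03 ± 0.57, a fold of 4.09 (adjusted p = 0.0382 by edgeR). Of the 7 fits that left out 1 mouse only that without PS/E4H replicate 3 kept the call. The fold in the other 6 was 1.59, 2.27 and 2.39 on the log2 scale without E4H replicates 1, 2 and 3, and 2.02, 1.93 and 1.92 without PS/E4H replicates 1, 2 and 4, with adjusted p up to 0.0986.

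For Il1b the other backgrounds overlapped. The counts were 14, 10 and 28 in the E3H and 13, 48, 9 and 73 in the PS/E3H mice (log2 fold change 1.14 ± 0.73, adjusted p = 0.420), where 2 PS/E3H mice were at the parental level. They were 30, 11 and 15 in the E2H and 13, 45, 76 and 21 in the PS/E2H mice (1.23 ± 0.67, adjusted p = 0.572), where 2 PS/E2H mice were above every E2H mouse. In PS/E3H mice the value was 0.59 on the log2 scale without PS/E3H replicate 4 and 1.58 without E3H replicate 3, and in PS/E2H mice the fits without 1 mouse gave 0.69 to 1.65.

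Il1rn, the secreted antagonist of the IL-1 receptor, was nearly undetected in parental mice and was the only cytokine whose PS19 and parental mice did not overlap in PS/E2H. Its counts were 0, 0 and 4 in E4H against 35, 26, 33 and 30 in PS/E4H mice, and 0, 4 and 0 in E2H against 6, 16, 54 and 10 in PS/E2H mice. Since a 0 allows up to 12 counts, the PS/E2H mice with 6 and 10 counts are not set apart from the E2H mice at 0. In E3H they were 4, 11 and 4 and in PS/E3H 8, 38, 32 and 161, where replicate 1 of PS/E3H lay within the E3H range. The PS/E4H mice were the most alike of the PS19 groups, at 0.499 ± 0.0629 CPM (SD, n = 4), while PS/E3H mice were at 0.881 ± 0.967 CPM (SD, n = 4).

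Over the 4 PS/E4H mice 124 counts of Il1rn were found and over the 3 E4H mice 4, and Il1rn rose there (log2 fold change 4.63 ± 0.92, adjusted p = 0.00946 by edgeR). It was called in all 7 fits that left out 1 mouse (adjusted p 0.00644 to 0.0440). The fold itself rests on a few counts, since it was 8.03 on the log2 scale without E4H replicate 3, the only E4H mouse with a count. In PS/E3H mice the log2 fold change was 3.22 ± 0.96 (adjusted p = 0.0793), which was 3.60 and called without PS/E3H replicate 1 and 2.11 without PS/E3H replicate 4. In PS/E2H mice it was 3.94 ± 1.31 (adjusted p = 0.277), although all 4 mice were higher, as in 6.67% of genes, and it was 7.54 without E2H replicate 2. PS/E3H replicate 4, with the most Il1rn, also had the highest summed CPM of 6 neutrophil markers (35.1, against 0.154 to 19.9 in the other PS19 mice), and the part of this was not tested.

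Il18, an IL-1 family cytokine activated by caspase-1, was among the most even of the 10. Its mean was 12.3 CPM in E4H mice (SD 0.756, n = 3) and 14.6 CPM in PS/E4H mice (SD 0.742, n = 4). The mice did not overlap, since the E4H mice were at 11.8, 11.9 and 13.2 CPM and the PS/E4H mice at 13.9, 15.6, 14.3 and 14.6 CPM, but the difference did not pass the test (log2 fold change 0.24 ± 0.10, adjusted p = 0.12 by edgeR). The 95% interval of that difference, 0.03 to 0.45 on the log2 scale, holds no fold of 2. In PS/E3H and PS/E2H mice the log2 fold changes were -0.04 ± 0.12 and 0.13 ± 0.15, with intervals of -0.31 to 0.24 and -0.19 to 0.45.

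Il33, which is stored in the nucleus and acts as an alarm signal when cells are damaged, had log2 fold changes of both signs. The PS/E3H mice were at 98.7, 120, 115 and 112 CPM and the E3H mice at 74.1, 87.2 and 76 CPM, so the groups did not overlap. Il33 passed the test there without the fold limit (log2 fold change 0.48 ± 0.09, adjusted p = 0.0144 by edgeR), and no longer passed without E3H replicate 1 (adjusted p = 0.0876) or E3H replicate 3 (adjusted p = 0.0731), nor in 1 edgeR fit over all 6 groups (0.49, adjusted p = 0.329). In that comparison all 6 oligodendrocyte markers also passed without the fold limit, higher in PS/E3H (median log2 fold change 0.44, summed CPM 6340 to 6765 against 4744 to 5240), and their part in the Il33 value was not tested.

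In PS/E4H mice Il33 was at 168, 140, 71.7 and 129 CPM against 82.0, 76.9 and 92.0 in E4H mice, so that 3 of 4 were above and replicate 3 was below every E4H mouse (log2 fold change 0.60 ± 0.22, adjusted p = 0.0989). In PS/E2H mice it was at 87.7, 69.0, 82.9 and 29.6 CPM against 82.7, 104 and 99.5 in E2H mice. The log2 fold change there was -0.51 ± 0.29 (adjusted p = 0.604) and was -0.26 without PS/E2H replicate 4, which had the lowest Il33 of all 21 mice. Of the 6 oligodendrocyte markers 5 passed without the fold limit in PS/E4H mice, all higher (median log2 fold change 0.46), and none passed in PS/E2H mice (median -0.04), and their part in these Il33 values was not tested.

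Tnf had few counts in every group. The counts were 4, 4 and 8 in E4H and 19, 24, 17 and 7 in PS/E4H mice. In counts PS/E4H replicate 4 lay within the E4H range, and only after scaling for depth were all 4 PS/E4H mice above the E4H mice (log2 fold change 1.85 ± 0.70, adjusted p = 0.102 by edgeR). In E3H mice the counts were 11, 8 and 0 and in PS/E3H mice 10, 22, 29 and 41 (log2 fold change 2.04 ± 0.92, adjusted p = 0.233). In E2H mice they were 11, 0 and 9 and in PS/E2H mice 0, 11, 35 and 7, too few for a test. Over all groups no parental mouse had more than 11 counts of Tnf, and 7 of the 12 PS19 mice did.

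Il6 and Osm share the gp130 family of receptors. Il6 had 0 to 15 counts in parental and 0 to 18 in PS19 mice, with means of 0.127 CPM in E4H (SD 0.0663, n = 3) and 0.114 CPM in PS/E4H mice (SD 0.0992, n = 4). With a log2 fold change of -0.17 ± 0.98 (adjusted p = 0.931 by edgeR) and a 95% interval from -2.35 to 2.01, a change of 4-fold in either direction was not detectable at this depth. Osm, a product of activated myeloid cells, was at 11, 4 and 4 counts in E3H and 11, 43, 20 and 31 counts in PS/E3H mice. The lowest PS/E3H and the highest E3H mouse tied in counts and were 0.154 and 0.149 in CPM, and the log2 fold change was 2.14 ± 0.71 (adjusted p = 0.110). Without PS/E3H replicate 1 it was 2.41 and called. The 3 cytokines higher in every PS/E3H than in every E3H mouse were Il33, Tgfb1 and Osm, 3 of 8 tested against 10.5% of genes. Osm counts were 8, 21 and 14 in E4H against 16, 25, 26 and 8 in PS/E4H (log2 fold change 0.62 ± 0.61, adjusted p = 0.545), and 19, 4 and 0 in E2H against 16, 38, 27 and 4 in PS/E2H mice (1.64 ± 1.08, adjusted p = 0.674).

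Il10, which dampens macrophage activation, was absent from 8 of the 9 parental libraries. The remaining parental mouse, E4H replicate 3, had 6 counts, while the 4 PS/E4H mice had 23, 40, 57 and 31. Among the other PS19 mice only PS/E2H replicate 2 (29 counts) and PS/E3H replicate 3 (23 counts) had any, so 6 of the 12 PS19 mice were at 0, and a 0 allows up to 12 counts. Il10 rose in PS/E4H mice, with 151 counts over 4 mice against 6 over 3 E4H mice (log2 fold change 4.38 ± 0.97, adjusted p = 0.0146 by edgeR). The call was lost without E4H replicate 1 (3.86) or E4H replicate 2 (3.82), with adjusted p up to 0.0616, and without E4H replicate 3 the E4H group was at 0 (8.32).

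Tgfb1, the more abundant of the restraining cytokines, rose in PS/E4H mice and had the smallest p of the 10. The E4H mice were at 4.25, 3.29 and 3.55 CPM and the PS/E4H mice at 9.99, 10.1, 8.37 and 7.68 CPM, well apart from each other. The log2 fold change was 1.28 ± 0.16, a fold of 2.43 (adjusted p = 0.000925 by edgeR), and the gene was called in all 7 fits that left out 1 mouse (1.21 to 1.40). In PS/E3H mice Tgfb1 was at 6.26, 9.22, 7.49 and 10.9 CPM against 5.59, 4.40 and 4.80 in E3H mice, again without overlap, and passed the test without the fold limit (0.77 ± 0.19, adjusted p = 0.0459). Of the fits without 1 mouse only that without PS/E3H replicate 1 kept this (adjusted p = 0.00811), and in the others the adjusted p was 0.0612 to 0.166. In PS/E2H mice it was at 7.54, 8.0, 7.84 and 5.61 CPM against 5.16, 7.28 and 4.72 in E2H mice, which overlap (0.34 ± 0.20, adjusted p = 0.612).

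**Figure D3:**
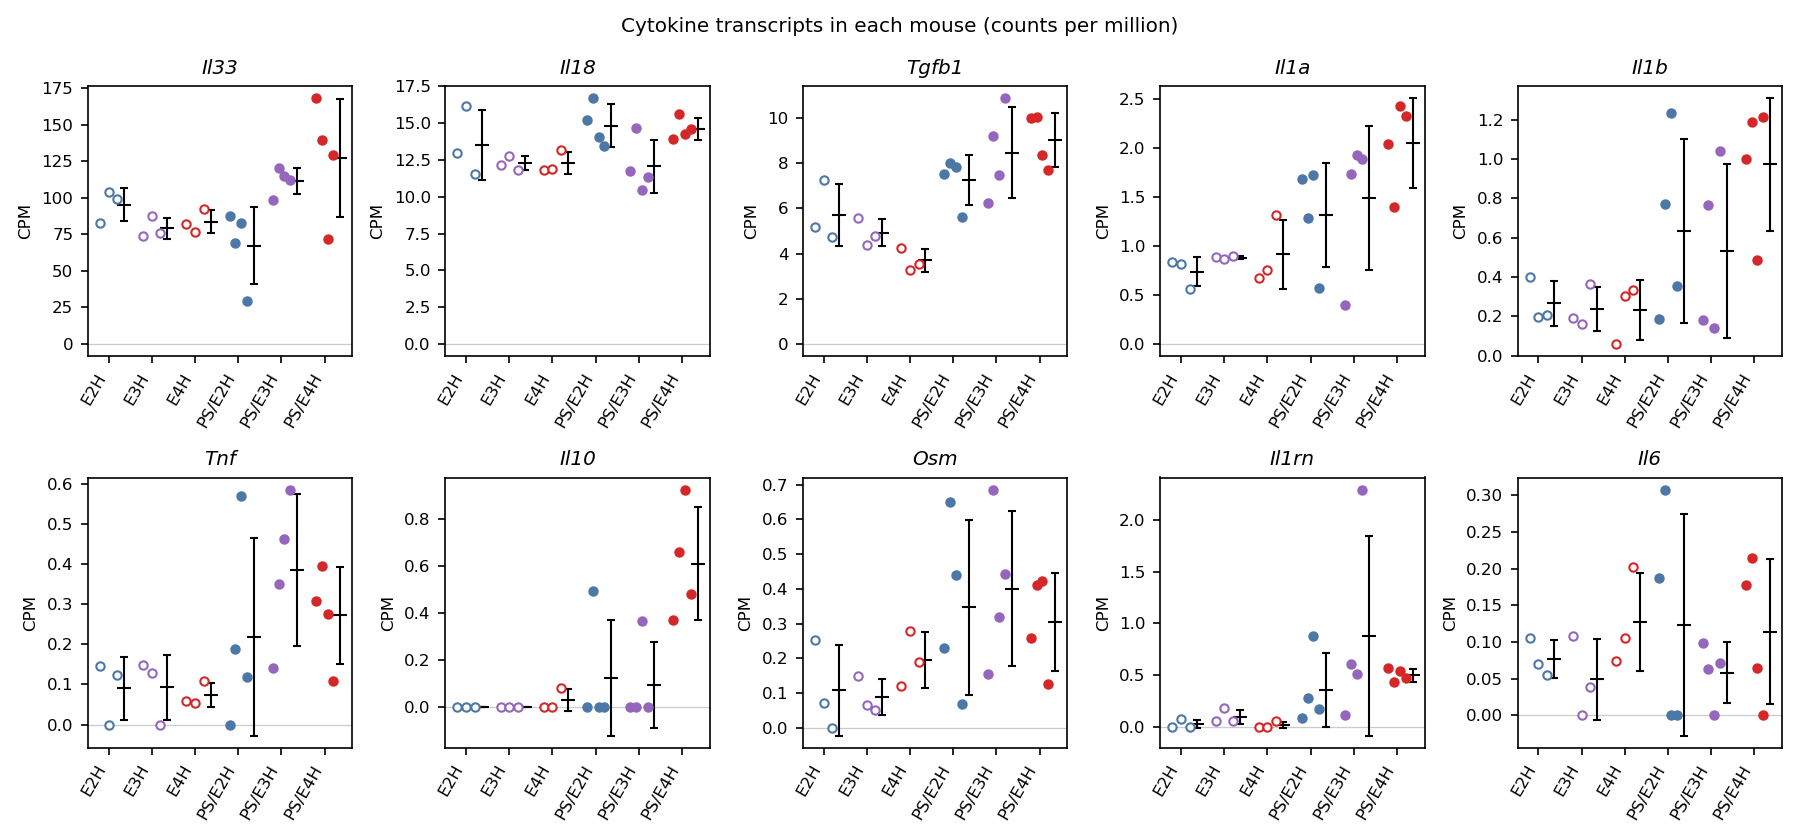
CPM of each cytokine gene in each mouse, 1 panel a gene in order of mean FPKM, with open circles for parental and filled circles for PS19 mice and bars for the mean ± SD of each group. Tgfb1 in PS/E4H mice sits at 7.68 to 10.1 CPM, all above the E4H mice at 3.29 to 4.25 CPM, and Il10 is at 0 in 8 of 9 parental mice.

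To gain counts for the rare transcripts, the tau comparison was averaged over the 3 APOE genotypes in 1 edgeR fit of all 21 mice. In this average 4 of the 10 cytokines were called, all higher in PS19 mice (Il1b, Il1rn, Il10 and Osm), against 2.82% of 22863 genes (2.42% higher). Of these, Il1rn and Il10 passed the filter on low counts only through the PS19 mice, so their calls could only be higher. Il1b was higher by a log2 fold change of 1.48 ± 0.42 (adjusted p = 0.0138), a fold of 2.78. Il1rn was higher by 3.94 ± 0.69 (adjusted p = 0.000305), with 27 counts over 9 parental and 449 over 12 PS19 mice, and both genes were called in all 21 fits that left out 1 mouse. Osm was higher by 1.48 ± 0.51 (adjusted p = 0.0427), but 14 of the 21 fits without 1 mouse lost the call (1.28 to 1.59 on the log2 scale, adjusted p up to 0.0863), as did the fit with no filter on low counts (adjusted p = 0.0665). The fits that kept it were those without replicate 1 of E2H, E3H, PS/E2H or PS/E3H and without PS/E2H replicate 4, PS/E3H replicate 3 or PS/E4H replicate 4. For Il10 (adjusted p = 0.0158, and 0.0902 by DESeq2) 2 of the parental groups were at 0 and no fold is given, with 6 counts in parental and 203 in PS19 mice. Its call was lost without PS/E2H replicate 2 or without PS/E3H replicate 3, the only mice of their groups with a count, and without PS/E2H replicate 2 the number of cytokines called was 2 (Il1b and Il1rn).

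Without the limit on fold, Il1a (0.91 ± 0.25, adjusted p = 0.0107) and Tgfb1 (0.80 ± 0.11, adjusted p = 2.66e-05) passed as well, 6 of 10 against 11.9% of genes higher. Tnf (1.71 ± 0.65, adjusted p = 0.0654, but 0.0234 and called by DESeq2), Il33 (0.20 ± 0.15, adjusted p = 0.389), Il18 (0.12 ± 0.07, adjusted p = 0.259) and Il6 (0.24 ± 0.78, adjusted p = 0.874) did not pass. Leaving out Il10, whose fold has no bound, the median log2 fold change of the other 9 cytokines was 0.91. The 5 genes that had been left out of at least 1 comparison for low counts were also tested singly, by an exact two-sided permutation test of CPM within each genotype (42875 relabelings). Il1rn and Osm had been left out only between parental groups, so low parental counts chose them, which favours higher PS19 values. The exact p-values are not adjusted for the 5 tests. PS19 mice exceeded parental mice by 0.532 CPM for Il1rn (exact p = 0.00128), 0.220 CPM for Osm (exact p = 0.00905), 0.206 CPM for Tnf (exact p = 0.00539) and 0.266 CPM for Il10 (exact p = 0.0198), and by 0.0141 CPM for Il6 (exact p = 0.716).

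The second question was whether the cytokines differ between APOE genotypes. Sex and, among PS19 mice, age at death may differ between these groups as well. None was called in any of the 6 comparisons by edgeR or by DESeq2. Among parental mice this was 0 of 5 tested in E2H relative to E3H (against 0.144% of genes), 0 of 6 in E4H relative to E3H (0.10%) and 0 of 6 in E4H relative to E2H (0.187%). An unadjusted p under 0.05 was found for 1 cytokine in each, Il33, Tgfb1 and Tgfb1, against 14.1%, 6.67% and 12.4% of genes. Among PS19 mice it was 0 of 8 in PS/E2H relative to PS/E3H (0.108%), 0 of 9 in PS/E4H relative to PS/E3H (0.0197%) and 0 of 10 in PS/E4H relative to PS/E2H (0.109%). The unadjusted p was under 0.05 for 2 (Il18 and Il33), 2 (Il10 and Il18) and 1 (Il33) of these, against 11.7%, 6.51% and 12.3% of genes. Relative to PS/E3H and PS/E2H mice, Il10 passed the filter on low counts only through the PS/E4H mice, so it could only be higher.

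Among parental mice, Tgfb1 was lowest in E4H, at 3.70 ± 0.498 CPM (SD, n = 3) against 4.93 ± 0.603 in E3H and 5.72 ± 1.37 in E2H mice. Every E4H mouse was below every E3H mouse (log2 fold change -0.41 ± 0.16, adjusted p = 0.677 by edgeR), as were 6.37% of genes, and below every E2H mouse (-0.62 ± 0.21, adjusted p = 0.363), as were 11.5% of genes. The PS19 mice showed no such order, at 9.02 ± 1.18 CPM in PS/E4H, 8.46 ± 2.02 in PS/E3H and 7.25 ± 1.11 in PS/E2H (SD, n = 4 each), and those groups overlapped. Il1a in every E2H mouse was below that in every E3H mouse, by a small margin (0.836 against 0.865 CPM, log2 fold change -0.26 ± 0.32, adjusted p = 0.737), as were 10.5% of genes.

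Among PS19 mice, Il33 in every PS/E2H mouse was below that in every PS/E3H mouse (-0.73 ± 0.26, adjusted p = 0.403 by edgeR), as were 2.78% of genes, and relative to PS/E2H it was 0.92 ± 0.31 higher on the log2 scale in PS/E4H mice (adjusted p = 0.330). Il10 in every PS/E4H mouse was at or above the highest PS/E3H mouse in counts and above it in CPM (2.73 ± 1.13, adjusted p = 0.759), as were 2.03% of genes. Since Il10 passed the filter there only through the PS/E4H mice, it could only be higher, which limits what that share means.

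Whether the tau comparison itself differs between APOE genotypes was tested as an interaction in the fit of all 21 mice. No gene of 22863 passed for E4 against E2 (0.00%), for E4 against E3 (0.00%) or for E3 against E2 (0.00%), and unadjusted p-values under 0.05 were found for 11.4%, 2.98% and 6.80% of genes. By DESeq2 none of the 10 cytokines passed either. For E4 against E2 the unadjusted p was under 0.05 for Tgfb1, whose log2 fold change was larger by 0.94 ± 0.27 on the E4 background (adjusted p = 0.225 by edgeR), and for Il33 (1.11 ± 0.37, adjusted p = 0.280). For E3 against E2 it was under 0.05 for Il33 (0.997 ± 0.365, adjusted p = 0.727), and for E4 against E3 for none of the 10, with Tgfb1 at 0.51 ± 0.27 (95% interval -0.05 to 1.07). The calls in PS/E4H mice and their lack in PS/E2H and PS/E3H mice are therefore not shown to differ. Differences in sex and age at death between the groups enter these interactions too. For Il10 the interaction of E3 against E2 could not be fitted, since both parental groups were at 0.

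Other genes of the cytokine pathways were counted in the average tau comparison from lists chosen by their role, where 2.82% of all genes tested were called (2.42% higher) and 11.9% passed higher without the fold limit. Of 18 receptors and binding proteins, 2 were called, both higher, and 12 passed without the fold limit, all higher (median log2 fold change 0.53). Osmr, the receptor subunit for oncostatin M, was higher by 1.82 ± 0.20 (adjusted p = 1.94e-06 by edgeR), and Il18rap, a subunit of the IL-18 receptor, by 1.53 ± 0.54 (adjusted p = 0.0463). The receptors that passed below a fold of 2 included both TNF receptors (Tnfrsf1a 0.98 ± 0.09, Tnfrsf1b 0.93 ± 0.13), Il1r1 (0.55 ± 0.16), Il10ra (0.57 ± 0.11) and Tgfbr2 (0.80 ± 0.09). Il1rap and Il1rl1, the receptor for IL-33, did not pass (-0.0035 ± 0.07 and 0.14 ± 0.21), nor did the decoy receptor Il1r2 (0.34 ± 0.33).

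Of 12 genes that process or activate these cytokines none was called and 7 passed without the fold limit, all higher (median 0.27). They included Nlrp3 (0.81 ± 0.20) and Pycard (0.68 ± 0.18), parts of the inflammasome that activates caspase-1, and Nrros (0.61 ± 0.10), which anchors latent TGF-β1 on microglia, while Casp1 itself did not pass (log2 fold change -0.00056 ± 0.13). Of 17 transducers of NF-κB, STAT3 and SMAD signals and their feedback genes, 1 was called, Bcl3, a nuclear IκB protein (2.19 ± 0.29, adjusted p = 1.33e-05 by edgeR). Without the fold limit 10 were higher, among them Stat3 (0.52 ± 0.06) and its inhibitor Socs3 (0.84 ± 0.16), and 1, Smad3, was lower (-0.20 ± 0.06), against 9.89% of genes lower (median 0.29).

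Of 10 genes that these cytokines induce, 6 were called, all higher, against 2.42% of genes higher (median log2 fold change 1.22). Those called included the adhesion molecule Icam1 (1.21 ± 0.17, adjusted p = 3.88e-05 by edgeR), Timp1, an inhibitor of metalloproteinases (2.35 ± 0.36, adjusted p = 8.00e-05), and the chemokine Cxcl10 (1.74 ± 0.28, adjusted p = 0.000129). Ptgs2 was not among those that passed (-0.27 ± 0.12), and Sod2 passed only without the fold limit and lower (-0.10 ± 0.03). Of 23 other cytokines 15 had enough counts, and 1 was called, Cntf, a cytokine of astrocytes (1.74 ± 0.32, adjusted p = 0.000504). Their median log2 fold change was -0.04. In the comparison of PS/E4H with E4H mice 3 receptors, 2 processing genes, 3 transducers, 5 induced genes and 1 other cytokine were called, against 2.98% of all genes tested. In PS/E3H mice these counts were 1, 0, 2, 3 and 1, against 1.32% of genes, and in PS/E2H mice 0 of each, against 0.485% of genes. No gene of these lists was called between APOE genotypes.

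**Figure D4:**
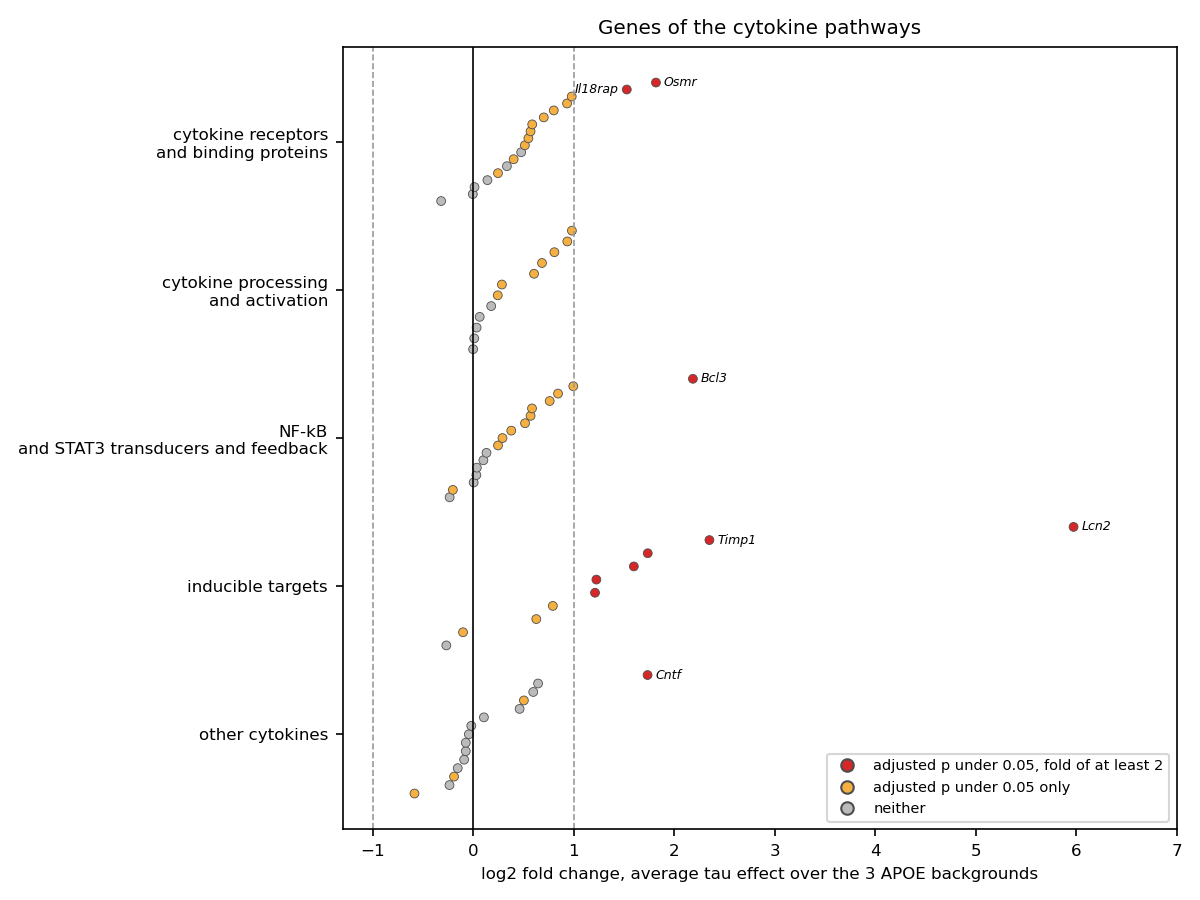
Log2 fold change of each gene of the 5 pathway lists in the average of the tau comparison over the 3 APOE genotypes, 1 band of points a list and names at the called genes of largest fold (at most 2 a list), with red for called genes, orange for genes that passed without the fold limit and grey for the others. The induced genes have 6 of 10 in red, the processing genes 0 of 12.

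Markers of several cell types moved with the cytokines, and their part in the results above was not tested. Of all genes in the average tau comparison 2.82% were called, and without the fold limit 11.9% passed higher and 9.89% lower. Of 10 microglial markers 4 were called in the average tau comparison and 7 passed without the fold limit, all higher (median 0.74), and their summed CPM was 334 to 442 in parental and 452 to 944 in PS19 mice. It was highest in PS/E4H mice, at 756 to 944, against 545 to 801 in PS/E3H and 452 to 752 in PS/E2H mice. Of 6 markers of border macrophages 4 were called, and their summed CPM was 6.63 to 13.1 in parental and 16.4 to 32.3 in PS19 mice. Of 6 neutrophil markers 5 had enough counts and 2 were called, at sums of 0.298 to 8.90 CPM in parental and 0.154 to 35.1 CPM in PS19 mice, with Ly6g at 0 in every E3H, E4H and PS/E2H mouse. Only PS/E3H replicate 4 (35.1) and PS/E4H replicate 1 (19.9) exceeded the highest parental sum, and the other PS19 mice were at 0.154 to 6.25 CPM. Camp had at most 8 counts in a parental mouse and passed the filter only through PS19 mice, so a call of it could only be higher. Of 8 astrocyte markers 1, Gfap, was called and 8 passed without the fold limit, of 6 oligodendrocyte markers 0 and 4, of 6 neuronal markers 0 and 4 (3 of them lower), of 4 endothelial markers 0 and 2, of 5 T cell markers 0 and 0, of 4 choroid plexus markers 0 and 1, and of 3 pituitary markers 1, lower.

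Across the 12 PS19 mice the cytokines followed the microglial sum to different degrees. Pearson's r of log2(CPM + 0.1) with the log2 of that sum was 0.85 for Il1a, 0.80 for Tgfb1 and 0.80 for Il33. It was 0.65 for Il1rn and 0.61 for Il1b, and 0.12 and 0.095 for Il6 and Il18. By rank (Spearman) the values for Il1a, Tgfb1 and Il33 were 0.81, 0.69 and 0.62. Across the 9 parental mice Pearson's r was 0.82 for Tgfb1, 0.77 for Il18 and 0.06 for Il1a. There E2H replicate 2 was the highest mouse in the sum (442 CPM), in Tgfb1 (7.28 CPM) and in Il18 (16.1 CPM). The r without that mouse was not taken. These values are a description of libraries that share 1 scale of total counts. In those over the 12 PS19 mice, PS/E2H replicate 4 and PS/E3H replicate 1 lie at the low end of the sum.

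**Figure D5:**
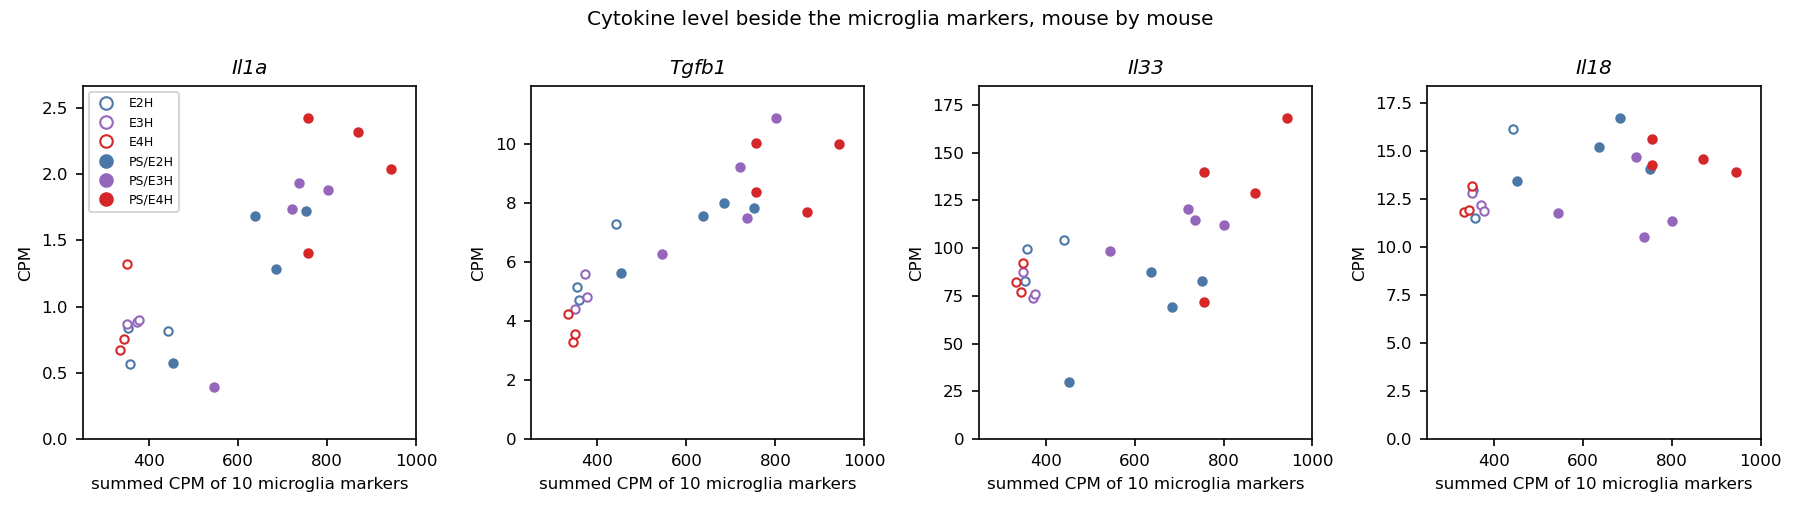
CPM of Il1a, Tgfb1, Il33 and Il18 against the summed CPM of 10 microglial markers in each mouse, with open symbols for parental and filled symbols for PS19 mice. Il1a and Tgfb1 are higher in the PS19 mice with higher sums (r of 0.85 and 0.80 over 12 mice), while Il18 shows no such order among them (r of 0.095). The axes are linear, and r was taken on log2 values.

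The genes whose log2 CPM over the 21 mice was most like that of each cytokine were listed by Pearson's r among 22863 genes, for the 8 cytokines with a mean of at least 10 counts a mouse. For Tgfb1 they were Agtrap (0.96), Arl11 (0.95) and Tyrobp (0.94), the last an adaptor of microglial receptors. For Il1a they included P2ry13 (0.86) and Lcp2 (0.84), and for Il1rn they were Tnfaip8l2 (0.94), Mmp12 (0.93) and H2-Ab1 (0.92), a macrophage protease and a class II antigen presentation gene being among the last. For Il33 they were Pllp (0.94), which encodes a myelin protein, Prr5l (0.93) and Pde8a (0.92), and for Il18 they included Thoc6 (0.87) and Gm10073 (0.83). For Il1b, Tnf and Osm the values were lower, with Il1rl2 (0.78), Rab43 (0.78) and Cd300a (0.78) for Il1b, Gm36210 (0.83), Elf2 (0.78) and Gm48510 (0.77) for Tnf, and Smarce1-ps1 (0.78), Gm20632 (0.76) and Gm45124 (0.76) for Osm. These lists are ranked over all genes on the same mice and carry no test.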

How the data were processed

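RNA of 21 forebrains was sequenced from stranded poly(A) libraries on an Illumina NovaSeq system. The authors trimmed reads with Cutadapt, mapped them with HISAT2 to the mouse genome (GRCm38.p5 per the labels), assembled and merged transcripts with StringTie and gffcompare, and deposited raw read counts per gene and FPKM values (fragments scaled by exon length and library size). The versions of these tools, the way the counts were derived and the use of strand in counting are not given in the sources used here. Symbols and positions come from GENCODE M21 (GRCm38), and promoters from RefSeq (GRCm38.p6).

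From the deposited counts, genes that passed filterByExpr (minimum count 10, minimum total 15) were scaled by TMM and tested by edgeR's quasi-likelihood test in 9 comparisons of 2 groups, each on its own mice, and in 1 fit of 6 groups over all 21 mice for the average tau comparison and 3 interactions. Adjusted p-values (Benjamini-Hochberg) cover every gene tested. A call needs an adjusted p under 0.05 and a fold of at least 2, and for interactions the first only. CPM divide counts by the library's total after TMM scaling, and errors of log2 fold changes are standard errors derived from the quasi-likelihood F. The fits were tested on simulated data. The alternatives were DESeq2, RLE scaling, no filter, no fold limit, 1 shared fit, limma on log2(FPKM + 1) and log2(FPKM + 0.1), a replicate block, each mouse left out, and, added after seeing the data, counts divided by 4 and rounded.

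The genes and lists were chosen with earlier results of these data known. All 10 cytokines are named, of each pathway list at most 4 called genes (those of lowest adjusted p in the average comparison), and for each cytokine with a mean of at least 10 counts the 3 genes of highest correlation, except for a few that are not reported here. Pathway genes named beyond these were picked by role after their values were seen. The labels do not say how mice were bred or processed together, so p-values measure the spread between these mice. Software was DESeq2 1.42.0, edgeR 4.0.16 and limma 3.58.1 in R 4.3.3, and Python 3.11.15, NumPy 2.4.6, SciPy 1.17.1, pandas 2.3.3 and matplotlib 3.10.9.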

Additional observations from a re-analysis of the deposited data

Results flagged for a closer look

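In 30 sets of 4 mice (10 cytokines in 3 PS19 groups) 3 held a mouse far from the rest by Dixon's criterion. Chance gives this in about 1 of 20 sets, a rate that does not apply to the 2 sets of Il10, where 3 of 4 mice were at 0 and any count in the other meets the criterion. Il1a was low in PS/E3H replicate 1, at 0.393 CPM against 1.74 to 1.93 CPM in the other PS/E3H mice, and this mouse also had the lowest microglial marker sum of its group (545 CPM against 721 to 801). Il10 was found in 1 mouse only of 2 groups, at 0.496 CPM in PS/E2H replicate 2 and at 0.367 CPM in PS/E3H replicate 3. The other mice of those groups were at 0. A 0 allows up to 12 counts, or 0.202 CPM before TMM scaling in the smallest library.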

How the results depend on the processing

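The number of cytokines called was 0 under every alternative, each mouse left out included, in PS/E2H relative to E2H mice, in the 6 comparisons between APOE genotypes and in the 3 interactions. In PS/E3H relative to E3H mice the count of 0 became 1 by DESeq2 (Il1rn, log2 fold change 3.24, adjusted p = 0.00266), 2 with no limit on the fold (Il33 and Tgfb1) and 0 to 3 with 1 mouse left out. In PS/E4H relative to E4H mice the count of 5 became 3 with no filter on low counts (Il1rn, Il10 and Tgfb1), 2 in 1 fit over all 6 groups (Il1rn and Tgfb1), 0 by limma on log2(FPKM + 1), 3 with counts divided by 4 and rounded (Il1a, Il1b and Tgfb1, while Il1rn and Il10 then had too few counts to be tested) and 2 to 4 with 1 mouse left out. For the average tau comparison the count of 4 became 0 by limma on log2(FPKM + 1), 1 on log2(FPKM + 0.1) (Il10), 2 with counts divided by 4 and rounded (Il1b and Il1rn, while Il10 and Osm were not tested), 3 with no filter on low counts (Osm lost), 6 with no limit on the fold (Il1a and Tgfb1 added) and 2 to 5 with 1 mouse left out. By DESeq2 it was again 4, with Tnf called (1.73, adjusted p = 0.0234) in place of Il10. Without the fold limit, Il33 in PS/E3H mice no longer passed in 1 fit over all 6 groups (adjusted p = 0.329), and Tgfb1 there no longer passed with no filter (0.0852), by limma on log2(FPKM + 1) (0.106) or log2(FPKM + 0.1) (0.0994), or with the replicate block (0.149). A pseudocount of 1 FPKM exceeds the level of 7 of the 10 genes, which shrinks their folds. Replicate numbers did not pair the mice, since the correlation of same-numbered mice lay between -0.12 and 0.095 over the 9 comparisons, and with a replicate block 2 cytokines were called in PS/E4H (Il10 and Tgfb1) and 2 in the average comparison (Il1rn and Il10). Directions reversed only for values near 0, where the cause was not tested. With 1 mouse left out, Il18 in PS/E3H mice was -0.14 to 0.026, positive without PS/E3H replicate 3. Il6 in PS/E4H mice was 0.25 with the replicate block and -0.43 to 0.33 with 1 mouse left out, positive without E4H replicate 3, PS/E4H replicate 3 or PS/E4H replicate 4, and in the average comparison -0.069 to 0.65, negative without PS/E2H replicate 2. Depth limits Tnf, Il6, Il10, Il1rn and Osm most, since their counts in most mice were a few fragments.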
